A study of Homo sapiens with 16 samples.

Results

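The kallikrein protease cluster described here is 6 neighbouring genes of human chromosome 19, namely KLK5, KLK6, KLK7, KLK8, KLK10 and KLK11. The 6 genes were picked with earlier results of these data known, and only their probe sets were chosen by annotation. Every probe set that the array annotation assigns to exactly 1 of these symbols was taken. This gave 7 of 22283 probe sets on the U133A array and 5 of 12626 on the U95 array. They stand for 6 of the 11963 genes on U133A, and 5 of the 6 passed the filter on low signal that left 7178 genes to test. KLK11 lay below that filter. The RNA came from OVCAR3, an established ovarian carcinoma cell line, given 1,25-dihydroxyvitamin D3, written 1,25(OH)2D3, at a dose that the labels state as 0.1 pM. Cells had the hormone for 8, 24 or 72 h, and control cells had its ethanol vehicle only; additions were staggered so that all were harvested together after equal ethanol exposure. The U133A arrays held 3 biological replicates of each treated time and 3 of vehicle, and the earlier U95 arrays held 1 sample of each. All samples are 1 cell line in 1 culture medium, and a whole culture was measured, so that fewer cells of a type and less RNA per cell cannot be told apart.

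Tissue kallikreins are secreted serine proteases made as inactive precursors, which are switched on when another protease removes a short leading peptide. In the outer skin they form a cascade: KLK5 can activate itself and KLK7, and together they cut the junction proteins that hold dead surface cells, while inhibitors of the SPINK and serpin families restrain them. Several members, KLK6 in particular, are known as secreted markers of ovarian carcinoma. The hormone acts through the vitamin D receptor, VDR, a nuclear receptor that binds DNA as a partner of the retinoid X receptor.

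On assembly GRCh38.p14 the 6 genes span 84.7 kb of chromosome 19, from 50943303 to 51027991, all on the minus strand, in the order KLK5, KLK6, KLK7, KLK8, KLK10 and KLK11. KLK9 lies between KLK8 and KLK10. The whole cluster holds 15 protein-coding kallikreins. RefSeq promoter windows of 300 bases, from 250 before to 50 after the annotated start, were found for 5 of the 6 genes, 9 windows in all because KLK7 has 3 and KLK10 and KLK11 have 2 each. Those of KLK6, KLK5 and KLK7 are shown because these genes had the largest changes of those tested on U133A. KLK6 is at chr19:50969542-50969841, KLK5 at chr19:50952989-50953288 and the first KLK7 window at chr19:50983868-50984167, each read 5′ to 3′ on the minus strand with TATAA and GC boxes in capitals.
KLK6: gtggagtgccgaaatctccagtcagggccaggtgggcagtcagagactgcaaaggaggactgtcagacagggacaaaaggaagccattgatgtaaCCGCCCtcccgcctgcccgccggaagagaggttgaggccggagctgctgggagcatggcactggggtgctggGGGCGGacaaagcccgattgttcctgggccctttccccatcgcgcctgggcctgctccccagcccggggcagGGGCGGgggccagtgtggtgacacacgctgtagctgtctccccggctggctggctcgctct
KLK5: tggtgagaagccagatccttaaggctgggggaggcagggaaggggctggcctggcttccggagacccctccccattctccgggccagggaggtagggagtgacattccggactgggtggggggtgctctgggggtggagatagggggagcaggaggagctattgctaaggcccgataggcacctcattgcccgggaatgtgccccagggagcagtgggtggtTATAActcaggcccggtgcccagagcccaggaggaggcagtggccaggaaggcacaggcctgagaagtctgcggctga
KLK7: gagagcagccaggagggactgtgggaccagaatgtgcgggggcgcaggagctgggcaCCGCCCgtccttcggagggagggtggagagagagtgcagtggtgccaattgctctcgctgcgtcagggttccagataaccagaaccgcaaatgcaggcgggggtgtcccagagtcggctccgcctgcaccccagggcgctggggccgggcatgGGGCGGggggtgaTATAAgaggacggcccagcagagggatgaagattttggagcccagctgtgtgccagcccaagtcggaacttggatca

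Positions in these windows count back from the start, with -1 the last base before it. The TATA motif, TATAA read on the sense strand, begins at -28 in KLK5 and at -27 in the first KLK7 window, and it is not in the KLK6 window. It occurs in 14.8% of all 35116 promoter windows of this length. KLK6 instead has 3 GC boxes, GGGCGG on either strand, at -155, -83 and -11. The first KLK7 window has 2, at -193 and -40, and the KLK5 window has none; 44.95% of all windows hold at least 1. VDR half-sites were searched as AGGTCA and as AGTTCA, and also as GGGTCA and as GGTTCA, on both strands. Only 1 of the 9 windows, the first of KLK10, held such a half-site, at -134 on the opposite strand, against 38.6% of all windows. The KLK7 windows overlap one another, as do those of KLK10, so the 9 are not separate sequences. A pair of half-sites in tandem with 3 bases between them, which contains the half-site motif, was in 0 of the 9 windows and in 26 of the 35116. These are matches of letters in short windows, and no binding was measured.

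Signals are MAS5 signals, a linear brightness per probe set that the authors scaled to a common mean on every array. A signal can be compared between arrays for 1 probe set and not between probe sets. The U133A arrays resembled each other, with pairwise correlations of log2 signals from 0.958 to 0.976 and medians of 168 to 195.5. CYP24A1, the hormone-degrading enzyme that is the best known VDR target, was 50.0-fold, 57.9-fold and 59.4-fold above vehicle at 8, 24 and 72 h (adjusted p = 1.6e-07, 3.12e-08 and 1.42e-08, limma with Benjamini-Hochberg adjustment over 7178 genes). Its vehicle arrays were dim and varied, from 56.4 to 247. Their mean of 129 lay under the filter's level, a signal of about 169, so CYP24A1 was tested through its treated arrays. Leaving out 1 array gave log2 changes of 5.26 to 6.19 at 8 h. All 6 epithelial markers and all 6 ovarian serous carcinoma markers examined passed the filter, against 3 of 6 fibroblast, 2 of 6 leukocyte and 0 of 5 endothelial markers, and 0 of these last 3 lists' tested markers were called at any time by limma, or had an unadjusted p under 0.05. Of the epithelial and serous markers, CDH1 rose, KRT18 fell by 0.50 on the log2 scale at 24 h and by 0.37 at 72 h, PAX8 fell by 0.37 at 24 h, and WT1 rose by 0.97, 1.00 and 1.05 at 8, 24 and 72 h. PTPRC, the defining marker of leukocytes, had signals of 13.1 to 77.2, and the fibroblast marker LUM reached 7.50 at most. Other members of these lists were brighter. CD53 read 344.5 to 640.5 and LAPTM5 151.5 to 301.7 among leukocyte markers, and COL1A1 415.6 to 725 and DCN 216.1 to 331.3 among fibroblast markers.

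KLK6, a trypsin-like protease abundant in the nervous system and in ovarian carcinoma, had the largest change of the 6 genes on U133A. Its signals were 798, 907 and 782 with vehicle, 2381, 2009 and 2209 at 8 h, 5173, 3904 and 5185 at 24 h, and 6351, 4963 and 7095 at 72 h. Every treated array was above every vehicle array, and the ranges of the 8 h, 24 h and vehicle groups did not touch. The 24 h and 72 h ranges overlapped through the lowest 72 h array. KLK6 averaged 2199.7 ± 186 at 8 h, 4754 ± 736 at 24 h and 6136 ± 1082 at 72 h, against 829 ± 67.8 with vehicle (SD, n = 3 each).

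The log2 change of KLK6 was 1.39 at 8 h (SE 0.14, adjusted p = 3.1e-05 by limma), 2.49 at 24 h (adjusted p = 2.9e-08) and 2.85 at 72 h (adjusted p = 3.88e-09), which is 2.62-fold, 5.61-fold and 7.22-fold. Changes throughout are on the scale log2(signal + 15.833), and the adjustment covers all 7178 genes tested. At 8 h KLK6 was the 1 kallikrein called of 5 tested, where 0.711% of all tested genes were called higher, 0.0557% lower and 0.766% in either direction. By size of rise it stood 13th among 7178 genes at 8 h and 5th at both 24 and 72 h. All 12 fits that each left out 1 array kept the call at every time, with log2 changes of 1.33 to 1.46 at 8 h and 2.74 to 3.00 at 72 h.

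**Figure D1:**
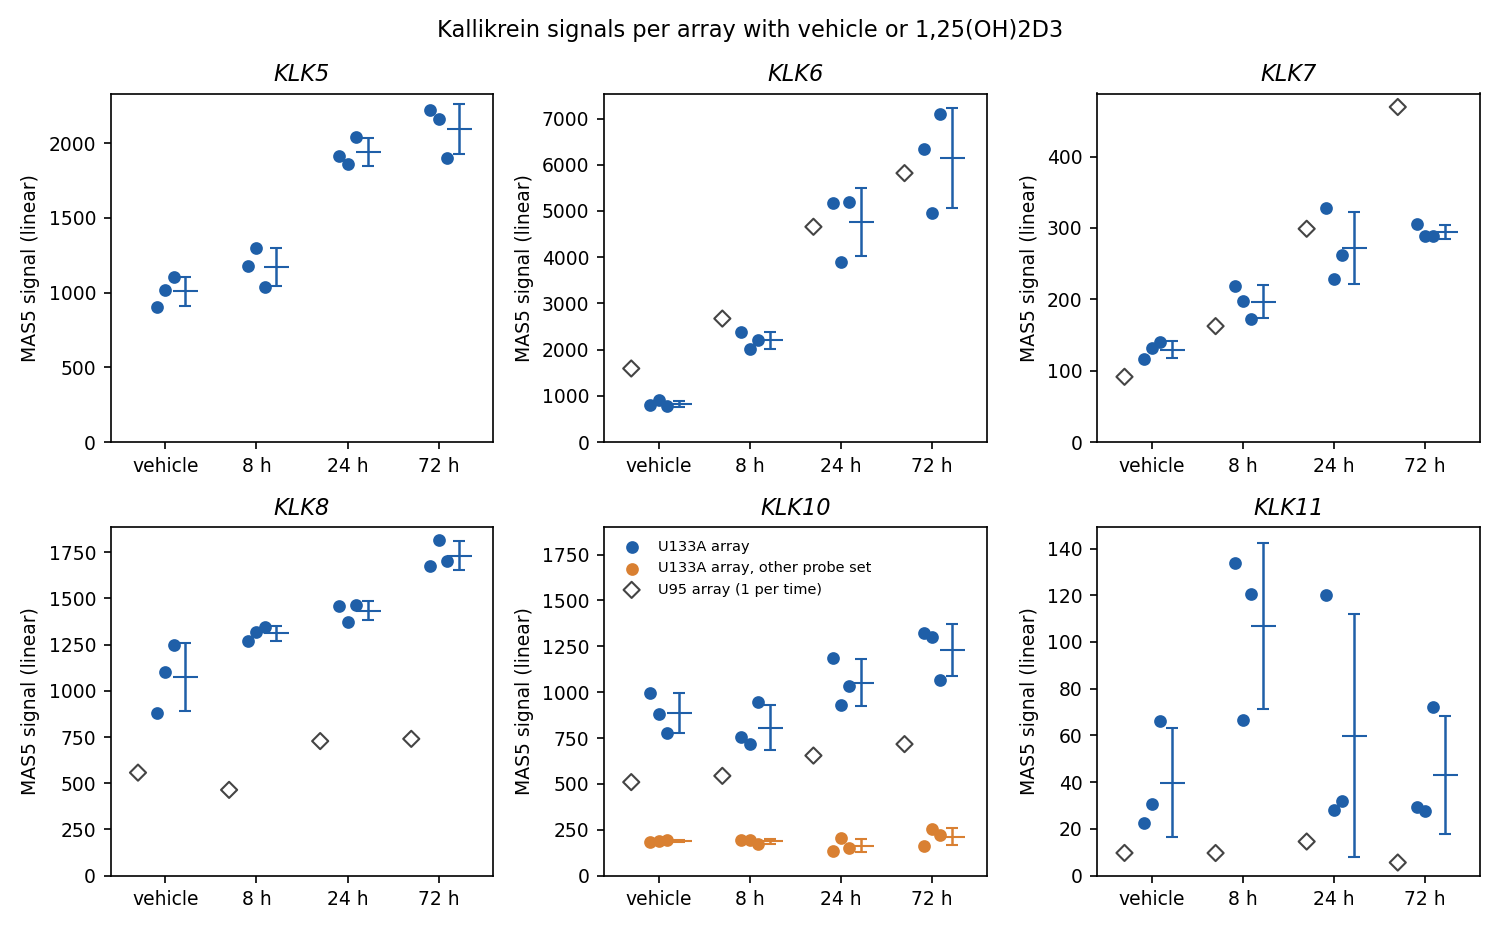
MAS5 signal on a linear axis for each kallikrein, by group in order of hormone time (vehicle, 8, 24 and 72 h). Filled circles are U133A arrays (3 per group) with bars for mean and SD, and open diamonds are U95 arrays (1 per time); the 2 probe sets of KLK10 are in different colours. KLK6 at 72 h sits between 4963 and 7095, against 782 to 907 with vehicle, while KLK11 stays at or under 134 in all groups.

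KLK5 and KLK7, the trypsin-like starter of the skin cascade and its chymotrypsin-like partner, both rose by 24 h. KLK5 signals were 905, 1016 and 1104 with vehicle, 1179, 1297 and 1039 at 8 h, 1916, 1861 and 2041 at 24 h, and 2222, 2160.4 and 1903 at 72 h. The 8 h arrays overlapped the vehicle arrays, and all 24 h and 72 h arrays lay above both. KLK5 averaged 1172 ± 129 at 8 h, 1939 ± 92.6 at 24 h and 2095 ± 169 at 72 h, against 1008 ± 99.8 with vehicle (SD, n = 3 each). Its log2 change was 0.94 at 24 h (adjusted p = 6.03e-05, limma) and 1.05 at 72 h (95% interval 0.81 to 1.28, adjusted p = 1.33e-05), a 2.06-fold rise, and 0.21 at 8 h (adjusted p = 0.846), which did not pass.

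KLK7, which cuts corneodesmosin in the skin surface, was a dim probe set: 117, 132 and 139.9 with vehicle, 219, 198 and 173 at 8 h, 327, 228 and 262 at 24 h, and 306, 289 and 288 at 72 h. Every treated array was above every vehicle array, and the treated groups came close to one another or overlapped. Its vehicle mean of 129.7 ± 11.5 lies under the filter's level, a signal of about 169, so that KLK7 entered the test through its treated arrays. KLK7 averaged 197 ± 23.3 at 8 h, 272 ± 50.5 at 24 h and 294 ± 10.3 at 72 h (SD, n = 3 each). The log2 change was 0.97 at 24 h (adjusted p = 0.00315, limma) and 1.09 at 72 h (95% interval 0.72 to 1.46, adjusted p = 0.000787), and 0.54 at 8 h (adjusted p = 0.306) did not pass. In a fit with no filter KLK7 was also called at 24 h (adjusted p = 0.0109) and 72 h (adjusted p = 0.00324).

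KLK8, a trypsin-like protease known from synaptic plasticity in the mouse brain and from the skin, changed less. Its signals were 883, 1099 and 1248 with vehicle, 1268, 1316 and 1348 at 8 h, 1458, 1375 and 1467 at 24 h, and 1674, 1818 and 1701 at 72 h. The treated arrays were above the vehicle arrays at each time, but the vehicle arrays differed among themselves more than the arrays of any treated group did, with an SD of 184 against 40.1 to 76.7. At 72 h it averaged 1731 ± 76.7, against 1077 ± 184 with vehicle (SD, n = 3 each), a log2 change of 0.69 (95% interval 0.45 to 0.93, adjusted p = 0.000932, limma), or 1.61-fold.

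At 24 h the log2 change of KLK8 was 0.42 (adjusted p = 0.0466), and at 8 h it was 0.29 (adjusted p = 0.48), which did not pass. The 24 h call was close to the threshold: 10 of the 12 fits that left out 1 array lost it (log2 change 0.29 to 0.53, adjusted p 0.0168 to 0.226), and it held without vehicle replicate 3 or without 72 h replicate 1. It was also lost with no filter (adjusted p = 0.0628), with quantile normalization (0.0569), with every probe set fitted on its own (0.0582) and with the 24 h and vehicle arrays alone (0.108). The 72 h call of KLK8 was kept in all 12 fits that left out 1 array.

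KLK10, first described as a gene silenced in breast tumour cells and with little known protease activity, was not called against vehicle at any time. The signals of its brighter probe set were 998, 879 and 779.6 with vehicle, 757, 716 and 945 at 8 h, 1186, 932 and 1035 at 24 h, and 1322, 1303 and 1069 at 72 h. Only at 72 h did all 3 arrays lie above the vehicle arrays, and at 8 h 2 of 3 lay below them. It averaged 806 ± 122 at 8 h, 1051 ± 128 at 24 h and 1231 ± 141 at 72 h, against 885 ± 109 with vehicle (SD, n = 3 each). The log2 change was -0.14 at 8 h (adjusted p = 0.999), 0.24 at 24 h (adjusted p = 0.462) and 0.47 at 72 h (95% interval 0.18 to 0.76, unadjusted p = 0.00362, adjusted p = 0.0519), the last just outside the threshold.

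With the replicate number as a block KLK10 passed at 72 h (adjusted p = 0.0388), as it did with quantile normalization (0.0474), with median centring (0.0441) and in 3 of 12 fits that left out 1 array, those without 24 h replicate 2 (0.0446), 72 h replicate 3 (0.0326) and 8 h replicate 3 (0.0422). The other KLK10 probe set was dimmer and did not pass at any time. It averaged 188 ± 13.6 at 8 h, 164 ± 35.4 at 24 h and 213 ± 46.8 at 72 h, against 188 ± 7.02 with vehicle, and its log2 changes were -0.01, -0.20 and 0.14. The probe sets therefore gave different signs at 24 h.

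KLK11, another trypsin-like member, was near the floor of the arrays. Its signals were 22.3, 30.8 and 66.2 with vehicle, 134, 66.6 and 120.4 at 8 h, 119.97, 27.99 and 31.8 at 24 h, and 29.3, 27.5 and 72.4 at 72 h, between the 14th and the 43rd percentile of their arrays. The 8 h arrays were all above the vehicle arrays, by 66.6 against 66.2 at the closest, and at each later time 1 of 3 was. In a fit with no filter its log2 change was 1.17 at 8 h (SE 0.46, adjusted p = 0.653), 0.32 at 24 h (adjusted p = 0.889) and 0.08 at 72 h (adjusted p = 0.97), and none passed.

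Counted together, 4 of the 5 tested kallikreins (KLK5, KLK6, KLK7 and KLK8) were called higher at 24 h and the same 4 at 72 h, where 2.45% and 3.86% of all tested genes were called higher and 4.07% and 6.84% in either direction. None was called lower, where 1.62% and 2.98% of all tested genes were. All 3 treated arrays lay above all 3 vehicle arrays for 3 of the 5 at 8 h, 4 at 24 h and 5 at 72 h, which was so for 6.51%, 9.32% and 11.7% of all tested genes. The median log2 change of the 5 was 0.29, 0.94 and 1.05 at 8, 24 and 72 h, beside 0.00, -0.02 and -0.01 over all tested genes. These figures describe genes picked with their response already known and, for KLK7, admitted by the treated arrays, and the 3 comparisons share the same vehicle arrays. An F test of any change over the 4 groups called all 5 (KLK10 with adjusted p = 0.0465), where 5.21% of all tested genes were called. KLK10 kept this call in 4 of the 12 fits that left out 1 array. It also lost the call with its probe sets averaged (F test adjusted p = 0.209), with no filter (0.0795), with every probe set fitted on its own (0.0582) and with array weights (0.0556).

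**Figure D2:**
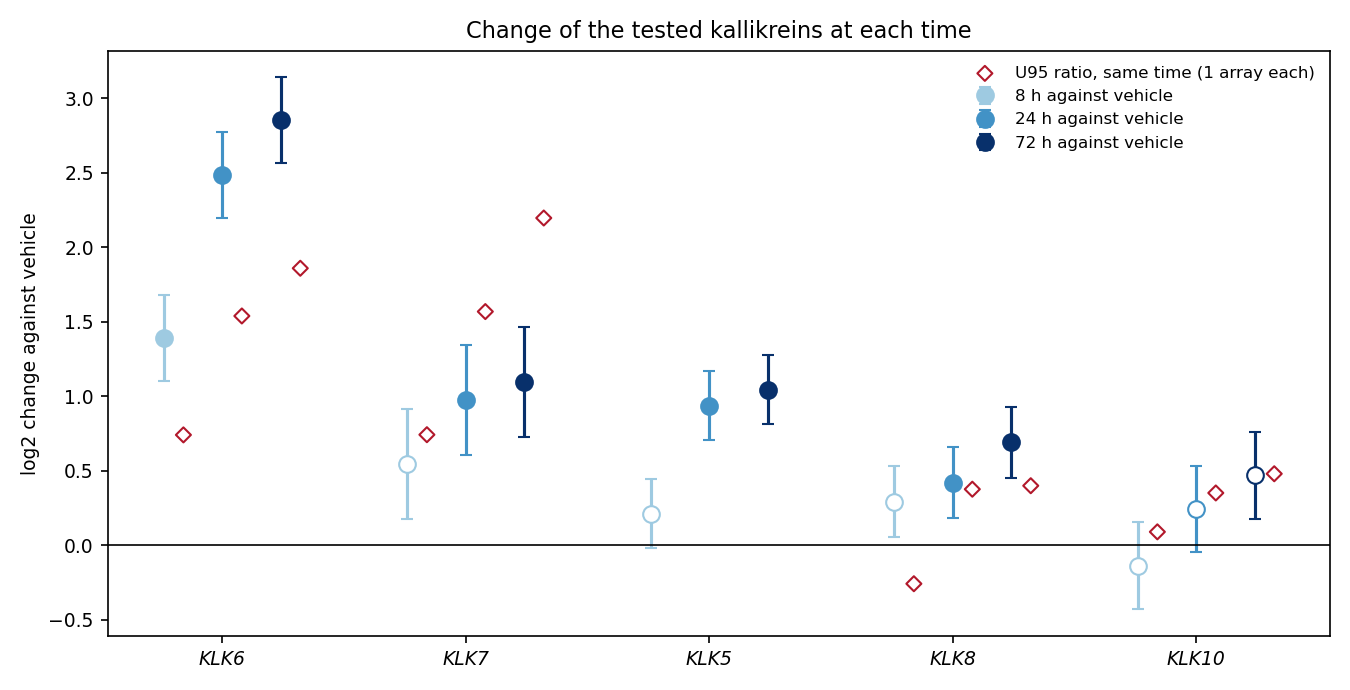
Log2 change against vehicle of the 5 tested kallikreins, with 8, 24 and 72 h side by side for each gene. Circles are U133A estimates with 95% intervals (filled where the adjusted p is under 0.05, open otherwise), and red diamonds are the U95 ratios at the same times, 1 array each, with none for KLK5. KLK6 is highest on U133A at 2.85 at 72 h, and its U95 ratio at that time is 1.86.

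The treated times were then compared with each other. Between 8 and 24 h KLK6 rose further by a log2 change of 1.10 (SE 0.14, adjusted p = 0.000791, limma) and KLK5 by 0.72 (SE 0.11, adjusted p = 0.00436), 2 of 5 tested kallikreins, where 0.362% of all tested genes were called higher and 0.641% (46 genes) in either direction, or 90 genes with the replicate number as a block. KLK7 (0.43, adjusted p = 0.5), KLK10 (0.38, adjusted p = 0.406) and KLK8 (0.13, adjusted p = 0.861) did not pass. Between 24 and 72 h no kallikrein was called in the limma fit, where 0.0836% of all tested genes were higher and 0.153% (11 genes) changed either way, or 25 with the block. The changes in that interval were 0.36 for KLK6 (unadjusted p = 0.0169, adjusted p = 0.325) and 0.27 for KLK8 (unadjusted p = 0.0289, adjusted p = 0.372), and 0.11 to 0.23 for the other 3, whose unadjusted p was over 0.05.

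Over the longer interval, 72 h against 8 h, KLK6 (1.46, adjusted p = 1.39e-05), KLK5 (0.83, adjusted p = 0.000376) and KLK10 (0.61, adjusted p = 0.0265) were higher in the limma fit, where 1.38% of all tested genes were called higher and 2.52% in either direction. KLK7 (0.55, adjusted p = 0.125) and KLK8 (0.40, adjusted p = 0.0826) were not called, though KLK8 was with the block (adjusted p = 0.0472) and without vehicle replicate 1 (0.0388). The KLK10 call was lost when its probe sets were averaged (log2 change 0.38, adjusted p = 0.114), with array weights (0.0546), and without 72 h replicate 1 (0.102) or 2 (0.0821) or 8 h replicate 1 (0.0978) or 2 (0.119). As a share of its own 72 h change, the 8 h change on U133A was 48.8% for KLK6 (46.4% to 51.0% in the fits that left out 1 array) and 49.7% for KLK7 (42.8% to 57.3%). It was 42.5% for KLK8 (28.6% to 50.5%) and 20.3% for KLK5 (13.1% to 28.2%), and of these 4 genes only KLK6 was called at 8 h. It was -29.1% for KLK10, which was not called at either time. At 24 h the share was 87.2% to 89.6% for KLK5, KLK6 and KLK7, 60.9% for KLK8 and 51.9% for KLK10. On the single U95 arrays the 8 h share was 39.9% for KLK6, 33.8% for KLK7, 18.9% for KLK10 and -64.3% for KLK8, and the 24 h share 82.8%, 71.4%, 73.2% and 94.2% in that order.

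The U95 arrays, 1 per time and so without a test, gave a second reading of 5 of the 6 genes from other probe sets. No U95 probe set used here stood for KLK5. KLK6 read 1593 with vehicle, 2673 at 8 h, 4658 at 24 h and 5819 at 72 h. KLK7 read 91.6 with vehicle, 163 at 8 h, 299 at 24 h and 469 at 72 h. Both were higher at each later time. The log2 ratios of KLK7 were 0.74, 1.57 and 2.20 at 8, 24 and 72 h, and those of KLK6 0.74, 1.54 and 1.86. At 8 and 24 h, which of the pair was larger depended on the number added before the logarithm, since KLK7 was dimmer. With 4 times that number the ratios were 0.57, 1.27 and 1.84 for KLK7 and 0.73, 1.51 and 1.83 for KLK6. At 72 h KLK7 thus stayed the larger, though the ratios were then nearly equal.

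KLK8 on U95 read 557 with vehicle, 464 at 8 h, 728 at 24 h and 740.1 at 72 h, and so was below vehicle at 8 h, where all 3 U133A arrays were above it. KLK10 read 509.8 with vehicle, 544 at 8 h, 654 at 24 h and 717 at 72 h, a log2 ratio of 0.48 at 72 h (0.65 with the arrays centred on their medians) beside 0.47 on U133A. KLK11 was dim here too, between 5.62 and 14.6. At least 2-fold rises were seen for 0 of the 4 kallikreins above the U95 filter at 8 h and for 2 (KLK6 and KLK7) at both 24 and 72 h, where 0.830%, 1.38% and 1.72% of all 4937 genes above that filter rose as much. The vehicle signal of KLK7, at the 34.9th percentile of its array, lay under the 40th percentile that sets this filter, so KLK7 entered the count through the treated arrays.

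Along the chromosome the called genes KLK5, KLK6, KLK7 and KLK8 are consecutive. The kallikreins next to this run, KLK4 and KLK9, could not be read here, so where it ends is not known. Of the other 9 kallikreins of the cluster, 3 passed the filter, and 0 of 3 were called at any time in the limma fit, with 0, 0 and 1 under an unadjusted p of 0.05 at 8, 24 and 72 h. KLK13 had log2 changes of 0.32, 0.30 and 0.53 at 8, 24 and 72 h (lowest adjusted p = 0.13), KLK12 had -0.07, 0.11 and 0.57, and KLK1, the tissue kallikrein that releases kinin, had 0.10, -0.02 and -0.03. Their signals were low, 96.8 to 337 over all 12 arrays. KLK2, KLK3, KLK14 and KLK15, of which KLK3 encodes prostate-specific antigen, were under the filter, with signals of 152 at most, and KLK4 and KLK9 were not analysed here.

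The protein-coding genes flanking the cluster, 20 on either side, and PPIAP59, a cyclophilin pseudogene within it, make 41 genes, of which 4 were tested (ETFB, MYH14, POLD1 and SIGLEC6). None of the 4 was called at any time, with log2 changes of -0.12 to 0.22 at 8 h, -0.41 to 0.45 at 24 h and -0.05 to 0.39 at 72 h (lowest adjusted p = 0.999, 0.192 and 0.461 by limma, with 0, 1 and 0 under an unadjusted p of 0.05). A p that misses the threshold does not show that a gene was unchanged.

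**Figure D3:**
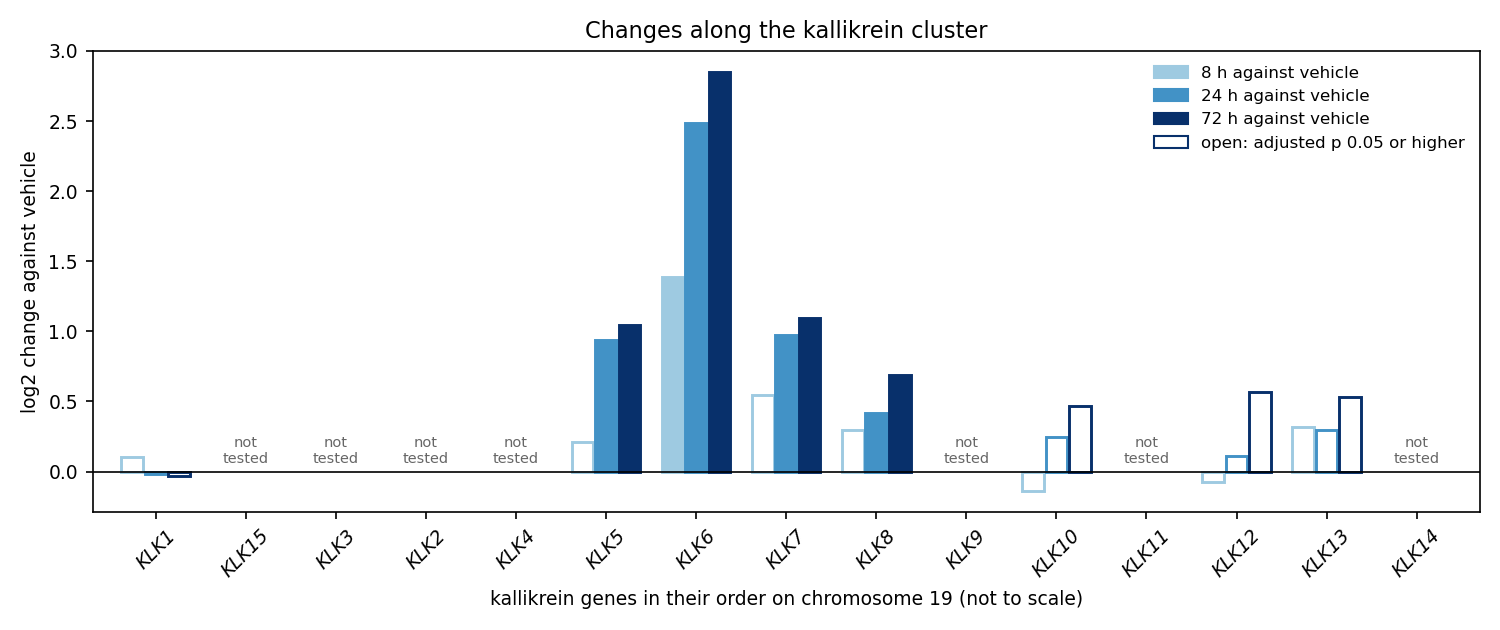
Log2 change against vehicle on U133A at 8, 24 and 72 h for the 15 kallikreins in their order on chromosome 19, not to scale. Filled bars have an adjusted p under 0.05, open bars do not, and genes without a tested probe set are marked. The filled bars stand at KLK5, KLK6, KLK7 and KLK8.

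Among the genes that kallikreins act on, CAMP and FLG were higher at 24 and 72 h. Of 30 substrates and receptors listed, 17 were tested; 2 were called higher at 8 h, 5 at 24 h and 6 at 72 h, where 0.711%, 2.45% and 3.86% of all tested genes were called higher, and 0 lower. This list, like those of activators and inhibitors below, was drawn up with earlier results of these data known. Its counts therefore describe the list and are not a test of it. The median log2 change of the 17 was 0.15, 0.01 and 0.29, beside 0.00, -0.02 and -0.01 over all tested genes. At 72 h, 11 of the 17 were not called. CAMP, the antimicrobial cathelicidin precursor that KLK5 and KLK7 process in skin and a known VDR target, read 338 ± 106 at 8 h, 896 ± 103 at 24 h and 1138 ± 117 at 72 h, against 30.8 ± 3.63 with vehicle (SD, n = 3 each). Its log2 changes were 2.87, 4.28 and 4.63 (adjusted p = 8.52e-07, 4.98e-09 and 1.59e-09, limma). Its vehicle mean lay under the filter, a signal of about 169, so it was tested because the treated arrays were bright, and the size of its change depended on the number added: at 72 h it was 5.16 with 1 added and 3.67 with 4 times the number used here, and it was called in both.

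FLG, filaggrin of the skin barrier, was 5702 ± 686 at 72 h, against 1093 ± 126 with vehicle, with log2 changes of 1.29 at 24 h (adjusted p = 4.14e-05) and 2.37 at 72 h (adjusted p = 3.92e-08), and 0.42 at 8 h, which did not pass. Among the squamous epithelium markers, 2 of the 8 on the array passed the filter, and FLG alone was called. Their summed signal was 8011 to 9168 at 72 h, against 3859 to 4503 with vehicle. Without FLG the sum of the other 7 was 2872 to 3100 at 72 h, against 2703 to 3328 with vehicle. Most of that sum was KRT10, the other marker past the filter, which read 2024 to 2692 over all arrays. The basal keratin KRT14 was the dimmest of the list and did not exceed 15.2.

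COL4A1, a basement membrane collagen, rose at all 3 times, by log2 changes of 0.92, 1.70 and 1.67 (adjusted p = 0.00135 at 8 h). PLAUR, the urokinase receptor, rose by 0.65 at 24 h (adjusted p = 0.00191) and 0.75 at 72 h (adjusted p = 0.000377), though its 3 probe sets ranged from 0.08 to 0.65 at 24 h and their mean was not called then (adjusted p = 0.366). The other 2 called members were named after their values were seen. The cell adhesion molecule CDH1 rose by 0.66 at 24 h (adjusted p = 0.00129) and 0.69 at 72 h (adjusted p = 0.00054). FN1, fibronectin, rose by 2.11 at 72 h (SE 0.49, adjusted p = 0.0145), from arrays that varied widely (2595 ± 1492 at 72 h, against 592 ± 382 with vehicle), and the call was lost without 72 h replicate 1 (0.0876) or vehicle replicate 2 (0.0668) or 3 (0.0729). Its 5 fitted probe sets ranged from 0.52 to 2.98 at 72 h.

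Of 17 listed activators and other trypsin-like proteases, 13 were tested, with 0 called higher at any time and 0, 1 and 2 called lower at 8, 24 and 72 h by limma (0, 3 and 3 of them had an unadjusted p under 0.05). Over all tested genes, 0.711%, 2.45% and 3.86% were called higher and 0.0557%, 1.62% and 2.98% lower at these times. TMPRSS4, a membrane serine protease, was 196 ± 35.5 at 24 h and 251 ± 42.8 at 72 h, against 424 ± 63.6 with vehicle, and fell by 1.06 on the log2 scale at 24 h (adjusted p = 0.00138) and by 0.72 at 72 h (adjusted p = 0.0167). The 72 h call was lost without 72 h replicate 1 (0.0659) or 3 (0.058) or vehicle replicate 2 (0.0853) or 3 (0.0624). PRSS2, a trypsin whose near-identical copies make its signal uncertain, fell by 0.78 at 72 h (adjusted p = 0.00923) in 1 probe set and had 0.18 in the other; the call was lost with their mean (adjusted p = 0.271) and without vehicle replicate 3 (0.0512). The list's median change was 0.02, 0.01 and 0.02.

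Of 20 listed inhibitors, 9 were tested, and 0, 1 and 1 were called higher and 0, 0 and 1 lower at 8, 24 and 72 h by limma (1, 5 and 3 of them had an unadjusted p under 0.05), beside the same shares of all tested genes, 3.86% higher and 2.98% lower at 72 h. SLPI, a secreted inhibitor of leukocyte elastase, was 9496 ± 584 at 24 h, against 7179 ± 457 with vehicle, a log2 change of 0.40 (adjusted p = 0.015), and 0.35 at 72 h (adjusted p = 0.0252). Its calls were near the threshold: the 24 h call was lost without 24 h replicate 1 (0.0526) or 2 (0.0562) or vehicle replicate 1 (0.0756) or 3 (0.0535), and the 72 h call without 72 h replicate 2 (0.102) or 3 (0.0705) or vehicle replicate 1 (0.11) or 3 (0.0729). SERPINA1, alpha-1-antitrypsin, fell by 0.93 on the log2 scale at 72 h (adjusted p = 0.00478), to 190.0 ± 59.5, against 367 ± 31.6 with vehicle. The list's median change was -0.04, -0.16 and -0.11. No SPINK inhibitor was among the 9 tested, since SPINK1 lay under the filter and SPINK5 and SPINK6 were not analysed here.

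**Figure D4:**
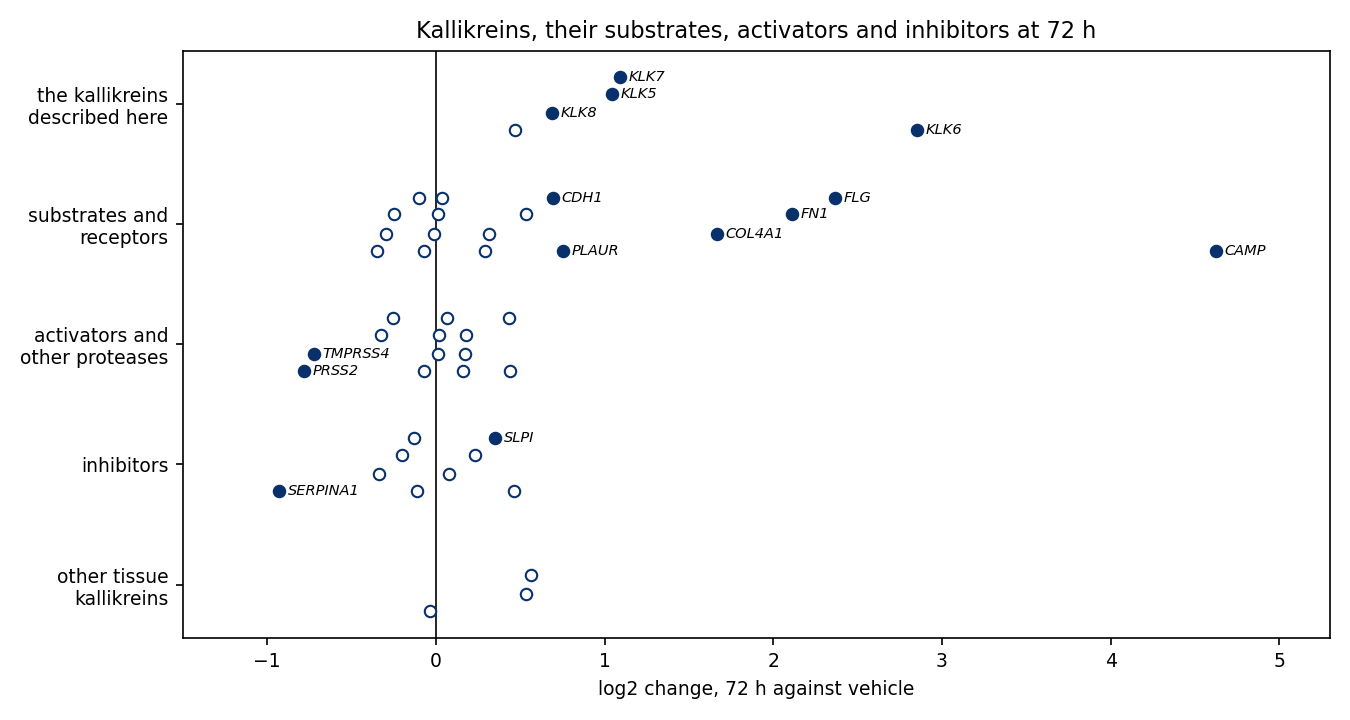
Log2 change at 72 h against vehicle on U133A, 1 point per tested gene, with rows for the kallikreins described here, substrates and receptors, activators and other proteases, inhibitors, and other tissue kallikreins. Filled points have an adjusted p under 0.05 and carry the gene's name; vertical spread within a row is only to separate points. CAMP lies farthest right at 4.63, and SERPINA1 farthest left at -0.93.

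For each kallikrein called against vehicle, the 3 tested genes with the closest 3 log2 changes over 8, 24 and 72 h were found, by root mean square difference over these 3 values, which share the vehicle arrays. For KLK6 they were CALCB, a calcitonin-related peptide (difference 0.33), PALMD, palmdelphin (0.34), and TRPV6, a calcium channel of gut uptake (0.53). CALCB had changes of 1.51, 2.03 and 2.52, PALMD 1.93, 2.44 and 2.61, and TRPV6 1.15, 1.80 and 2.29. CALCB and PALMD were called at all 3 times and TRPV6 at 24 and 72 h. The 24 h call of TRPV6 was lost without 24 h replicate 1 (adjusted p = 0.0552). The vehicle means of CALCB (93.58), PALMD (53.59) and TRPV6 (76.25) lay under the filter's level, a signal of about 169. All 3 were therefore tested because their treated arrays were brighter.

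KLK5 was most like ATP2B4, a plasma membrane calcium pump (0.05), DDIT4, a stress-induced regulator of mTOR (0.09), and the stress kinase MAPK13 (0.10), all called at 24 and 72 h. KLK7 was most like INHBB, an inhibin and activin subunit (0.06), ADGRB2, an adhesion receptor (0.08), and the mitochondrial thiolase ACAA2 (0.09). INHBB and ADGRB2 were called at 24 and 72 h, with the 24 h call of ADGRB2 lost without 24 h replicate 1 (0.0559) or 3 (0.0614) or vehicle replicate 1 (0.0555) or 2 (0.0694). The vehicle mean of ADGRB2, 167, was also just under the filter's level. ACAA2 was called at no time but passed at 24 h (0.034) and 72 h (0.0211) without vehicle replicate 2. For KLK8 the closest were PGAP4 (0.02), SNX7 (0.03) and PIK3C2B (0.06); SNX7 passed only at 72 h (adjusted p = 0.0493) and lost that call in each fit that left out 1 of the 8 h, 72 h or vehicle arrays or 24 h replicate 1 (adjusted p up to 0.184), and the other two were called at no time.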

How the data were processed

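RNA of OVCAR3 cells was measured on 12 U133A arrays (4 groups of 3) and 4 U95 arrays. Each deposited value is a linear intensity, which the submitters' processing notes name as MAS5. On each array the 2% trimmed mean came to 500.2, so the authors' scaling was taken as common and kept. The number of arrays limits the precision. Detection calls were not used here, and 0 columns lacked a sample. Probe sets with exactly 1 gene in the platform annotation (19071 of 22283 on U133A, 10961 of 12626 on U95) were used. Probe sets marked _s_at (KLK5, KLK8, KLK10 and KLK11) can match more than 1 transcript, and cross-hybridization between kallikreins was not tested.

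Values were taken in R 4.3.3 (data.table package 1.17.8) as log2(value + 15.833); the number added is the U133A values' 10th percentile (13.9 on U95). Each gene was represented by its probe set of highest mean, and genes under the 40th percentile of means were left out. limma 3.58.1 (lmFit, eBayes with trend) was fitted to all 12 arrays with 8 residual degrees of freedom, and p-values were Benjamini-Hochberg adjusted over 7178 genes, with a threshold of 0.05. The script was tested on simulated data. Replicates are labelled biological, from independent experiments. Same-number arrays deviated together, with correlations over 0.1 in all 3 pairs, for 8 with 24 h (0.108 to 0.157) and 24 with 72 h (0.103 to 0.187), and in 1 or 2 of 3 pairs elsewhere. The labels do not state what the number marks, and the block is an alternative. Other alternatives changed the scaling, pseudocount, filter, probe set rule, arrays fitted and array weights (statmod 1.5.0), or left out each array in turn. The 41 neighbours were read from RefSeq's gene order.

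The members, gene lists and tests were chosen with earlier results of these data known. Named genes were all members, the tested kallikreins of the cluster, CYP24A1 as a check, up to 4 genes per list with the lowest F test p among those past the threshold, and the 3 nearest genes per called member. Called CDH1 and FN1, and the tested neighbours, were named after their values were seen, and GADD45A, also listed as a check, had log2 changes of 1.49, 1.91 and 2.02 at 8, 24 and 72 h.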

Additional observations from a re-analysis of the deposited data

Results flagged for a closer look

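The effects at 2 times against the same vehicle arrays differed, by the limma test of the difference itself, for 3 kallikreins. KLK6 was higher at 24 h than at 8 h by a log2 change of 1.10 and higher at 72 h than at 8 h by 1.46. KLK5 was higher at 24 h than at 8 h by 0.72 and higher at 72 h than at 8 h by 0.83. KLK10 was higher at 72 h than at 8 h by 0.61, a difference that rests on its brighter probe set.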

How the results depend on the processing

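All alternatives in the plan were run, except that the F test has no value with the compared groups alone. Over 22 alternative fits and 30 changes of the 5 tested kallikreins, 0 of 660 values turned sign. Many of these values could not turn. The log2 change stayed the same with no filter, with the compared groups alone, with the block and without an array of another group. Where every probe set was fitted, only the one with the lowest p was counted. The dimmer KLK10 probe set, which had -0.20 at 24 h, was left out there. Kallikreins called numbered 1 at 8 h, 3 to 4 at 24 h, 4 to 5 at 72 h, 2 for 24 h against 8 h, 0 for 72 h against 24 h, 2 to 4 for 72 h against 8 h and 4 to 5 by the F test. All genes called ranged from 38 to 84 at 8 h, 189 to 453 at 24 h and 324 to 653 at 72 h, from 11 to 90 for 24 h against 8 h, 4 to 25 for 72 h against 24 h, 103 to 292 for 72 h against 8 h and 261 to 534 by the F test. The lowest of these came without vehicle replicate 3 at 24 h, without vehicle replicate 1 or 3 at 72 h, and without 8 h replicate 3 for both comparisons with 8 h (72 h against 8 h also had 120 without 72 h replicate 1 and 108 without 8 h replicate 2). For 72 h against 24 h the lowest came with no filter and without 24 h replicate 2 or 72 h replicate 3, and the highest at 24 h came with array weights. With no filter, 24 h against 8 h had 22. The replicate block gave 84, 420, 653, 90, 25 and 292 genes in that order and 534 by the F test; among the kallikreins it added KLK10 at 72 h (0.0388) and KLK8 for 72 h against 8 h (0.0472) and changed no other call of theirs, and at 24 h it added SERPINA1 (0.0496) and PRSS2 (0.0396). Scalings of the U133A arrays moved the median of all genes by under 0.05. Median centring of the U95 arrays raised every log2 ratio there by 0.060 at 8 h, 0.12 at 24 h and 0.165 at 72 h, so that at 72 h KLK6 had 2.02, KLK10 0.65 and KLK8 0.57. Among other named genes, FN1 at 8 h turned sign with every probe set fitted (0.67), with its probe sets averaged (0.042) and without 1 array, KLK1 at 24 h did with quantile normalization (0.019), and single left-out arrays turned the following, given as the range over all of them. These were ACAA2 at 8 h (-0.069 to 1.09), FN1 at 8 h (-0.59 to 0.41), KLK1 at 24 h (-0.14 to 0.078), KLK1 at 72 h (-0.18 to 0.11), KLK12 at 24 h (-0.34 to 0.39), KLK12 at 8 h (-0.52 to 0.21), PGAP4 at 24 h (-0.12 to 0.80), PGAP4 at 8 h (-0.27 to 0.64), PIK3C2B at 24 h (-0.027 to 0.57) and PIK3C2B at 8 h (-0.10 to 0.50). The cause was not tested.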
